A study of Mus musculus with 30 samples.

Results

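The genes described here are the peroxisome proliferator-activated receptors (PPARs) of the mouse ovary, their retinoid X receptor partners, a shared coactivator, and the fatty acid uptake, oxidation and storage genes that these receptors are known to regulate. They were picked by name, 37 of the 18022 genes in the deposited table, and all 37 were present and passed the filter on low values (mean above 0 log2 CPM over all libraries), which 14740 genes passed. None of the 37 passed the test between any phthalate group and vehicle at either time, and 0 of all 14740 genes did (0%). Between all ovaries collected 3 months after dosing and all collected at 0 months, 9 of the 37 passed at an adjusted p under 0.05, against 20.3% of all genes tested. Plin2, Hadhb, Decr1, Me1, Cpt1a, Rxra, Pex11a and Ech1 were higher at 3 months, by 1.1-fold (Rxra) to 1.63-fold (Me1), and Fabp5 was lower, at 0.823-fold.

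PPARs are nuclear receptors that bind fatty acids and their derivatives, pair with a retinoid X receptor, and bind DNA at a direct repeat of a short hexamer. In liver, activation of PPAR alpha is known to raise genes of fatty acid uptake, of the carnitine shuttle that carries acyl chains into mitochondria, of mitochondrial and peroxisomal beta-oxidation, and of lipid droplets. The monoester metabolites of phthalates are known PPAR agonists, and PPAR gamma is known in the rodent ovary mainly from granulosa cells, where its transcript declines after the luteinizing hormone surge.

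The animals were adult female mice of the outbred CD1 stock, and RNA came from whole ovaries. DEHP, di(2-ethylhexyl) phthalate, was given at 20 or 200 µg/kg/day and DiNP, diisononyl phthalate, at 20 or 100 µg/kg/day, each for 10 days. The remaining mice received a vehicle, whose nature and route the labels do not give. Ovaries were taken either 3 months after the last dose or at once, called 0 months below, so that 2 times and 5 treatments made 10 groups of 3 libraries. The labels name no transgene or deletion in any group. DEHP 20, DEHP 200, DiNP 20 and DiNP 100 name the groups by agent and daily dose. The labels do not say whether the libraries of a group came from separate animals, so the p-values reflect how these libraries vary, which may be technical variation only.

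Levels are log2 CPM (log2 of reads scaled by library) as deposited. This scale depends on transcript length, so levels are compared between libraries and not between genes. Taken back from log2, the values of a library summed to 907668 to 1164842 CPM, so the totals were not common to all libraries. The lowest total was in DEHP 200 at 0 months replicate 3 and the highest in DiNP 100 at 3 months replicate 3. The part of these totals in the differences between times was not tested. Differences are log2 differences with the standard error of the limma fit, and 1 unit is a 2-fold change. Libraries of a group correlated at r = 0.908 to 0.98 over all genes, and no pair of libraries was identical. Whole-ovary RNA mixes granulosa, theca, luteal, oocyte, stromal and blood-borne cells, so fewer cells of a type and less RNA per cell cannot be told apart in any result below. Granulosa markers were present in every library, with a mean over 12 genes between 7.05 and 8.58 log2 CPM. The mean of 12 corpus luteum markers, genes of the progesterone-making body that forms after ovulation, varied far more, with 8.58 to 10.85 log2 CPM at 3 months and 5.39 to 10.36 at 0 months. Its extremes at 0 months were replicates 2 and 3 of DEHP 200, at 10.36 and 5.39 log2 CPM. The spread of the 37 genes within groups was close to that of the rest, with a median SD of 0.243 log2 against 0.246 over all genes. Fabp3, Scd1, Acsl1 and Me1 varied most, and Hsd17b4, Rxrb and Ppard were the steadiest.

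In the 8 comparisons of a phthalate group with vehicle of the same time, the 37 genes gave 296 differences, from -0.62 for Ppara (DiNP 100 at 3 months) to 0.59 for Me1 (DiNP 20 at 0 months). Only 2 of the 296 were beyond 1.5-fold in either direction, and 165 were above 0. The adjusted p-values of the 37 genes lay between 0.518 and 1 (limma). At an unadjusted p under 0.05, the 37 genes gave 3 of 296 results (1.01%), namely Ucp2 after DiNP 100 and Slc25a17 after DEHP 200 at 3 months, and Acadl after DEHP 20 at 0 months. The share of all 14740 genes at that level was 1.68% for DEHP 20, 1.44% for DEHP 200, 1.52% for DiNP 20 and 9.28% for DiNP 100 at 3 months. At 0 months it was 2.37% for DEHP 20, 5.02% for DEHP 200, 2.08% for DiNP 20 and 1.75% for DiNP 100.

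The median log2 difference of the 37 genes from vehicle at 3 months was 0.06 for DEHP 20, -0.04 for DEHP 200, 0.02 for DiNP 20 and 0.06 for DiNP 100. At 0 months the median was -0.01 for DEHP 20, 0.07 for DEHP 200, 0.02 for DiNP 20 and 0.03 for DiNP 100. Medians over all genes were between -0.01 and 0.01 in all 8 comparisons. The number of the 37 above vehicle ran from 12 (DEHP 200 at 3 months) to 27 (DEHP 200 at 0 months). The 4 comparisons of a time share the same 3 vehicle libraries, so a gene on 1 side of vehicle in several of them is not repeated evidence. Me1 was above vehicle in 8 of 8, and Acsl1, Plin2, Ehhadh, Acot1 and Ucp2 in 7 of 8, while Pparg and Cpt1b were above it in 1 of 8. With 3 libraries a group the median SE of a difference was 0.192 log2, and the 95% interval stayed within 2-fold in either direction for 29 to 33 of the 37 genes. Fabp3 had the widest interval. An F test for any difference among the 5 treatments called 0 of the 37 and 0 of 14740 genes at each time (limma, adjusted p under 0.05). Its unadjusted p was under 0.05 for 1 of the 37 at each time, Slc25a17 at 3 months, where 3.99% of all genes were under it, and Fabp5 at 0 months, where 2.2% were. All 3 treated libraries lay on 1 side of all 3 vehicle libraries in 22 of the 296 results, against 7.25% of those over all genes. At 3 months the number of the 37 was 4 for DEHP 20 (5.59% of all genes), 1 for DEHP 200 (5.27%), 1 for DiNP 20 (6.07%) and 2 for DiNP 100 (5.82%). At 0 months it was 4 for DEHP 20 (9.4%), 2 for DEHP 200 (7.85%), 4 for DiNP 20 (9.73%) and 4 for DiNP 100 (8.31%). These shares are the background for each gene described below as lying above or below vehicle in all 3 libraries.

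**Figure D1:**
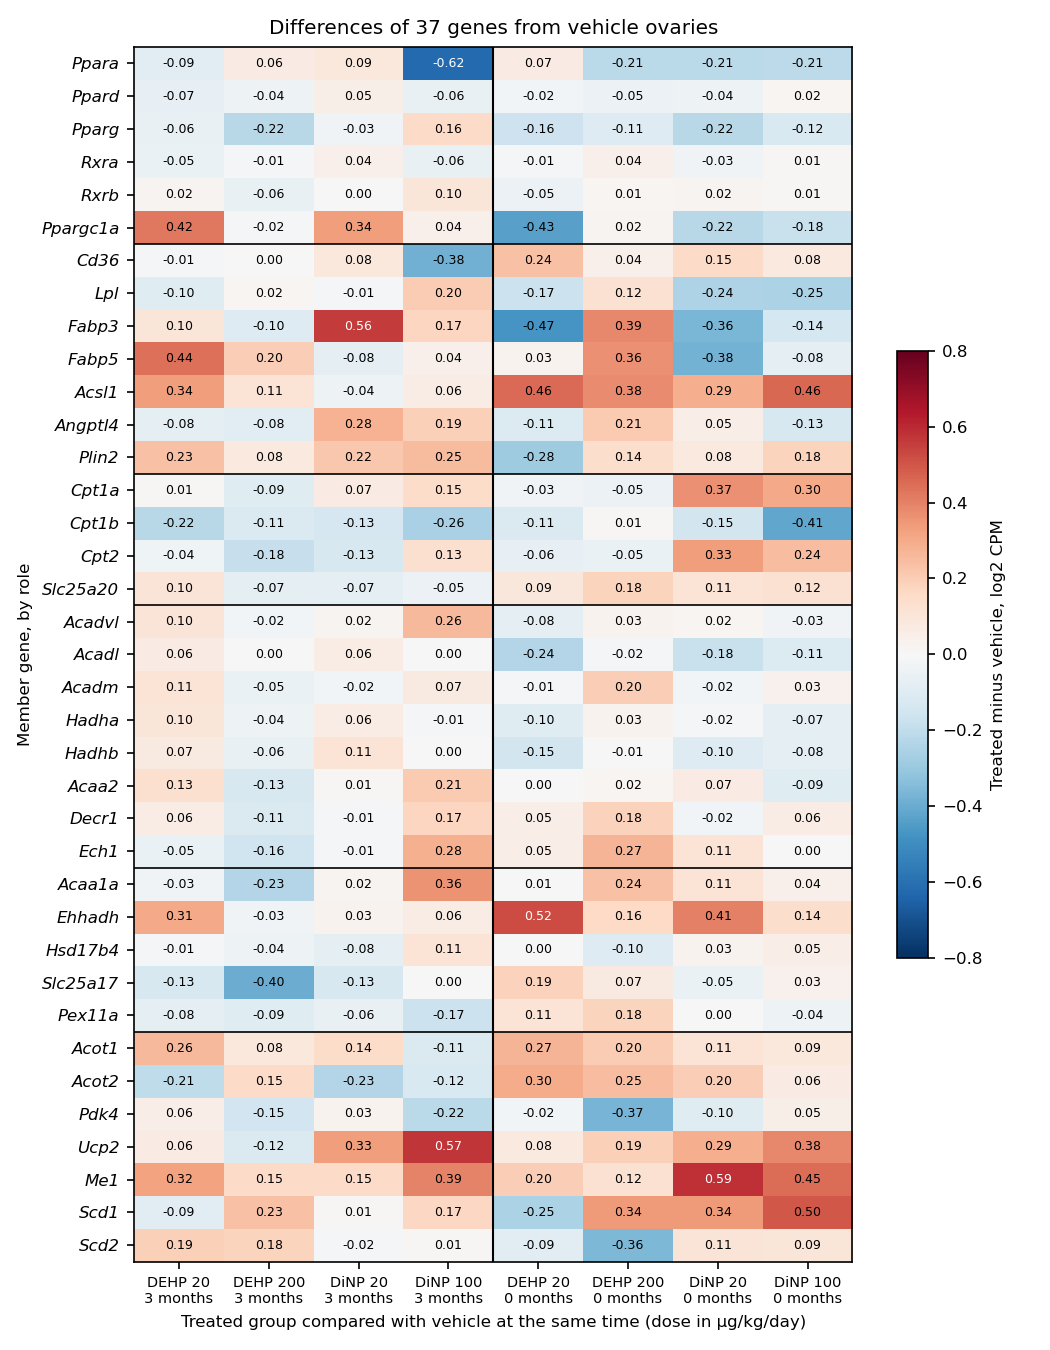
Log2 difference between each phthalate group and vehicle of the same time for all 37 genes, ordered by role, with 3 months to the left of 0 months. Each cell is a difference of 2 group means of 3 libraries in log2 CPM; most lie near 0, the lowest is Ppara after DiNP 100 at 3 months (-0.62) and the highest Me1 after DiNP 20 at 0 months (0.59).

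Over time the calls were 8 higher and 1 lower at 3 months among the 37, beside 10.6% and 9.63% of all genes tested, so the overall share (9 of 37, against 20.3%) was near that of all genes tested. The median log2 difference of the 37 genes was 0.06, against 0.00 over all genes, and 25 of the 37 were above 0. At an unadjusted p under 0.05 there were 17 of the 37, against 35.1% of all genes. By role, 1 of 6 receptor genes, 2 of 7 uptake and storage genes, 1 of 4 carnitine shuttle genes, 3 of 8 mitochondrial oxidation genes, 1 of 5 peroxisomal genes and 1 of 7 others passed. Animals at 3 months were also older, so time after dosing and age cannot be told apart. Within single treatments 0 of the 37 passed between times, where 0.0475% of all genes passed for DiNP 100, 0.0204% for DEHP 20 and for DiNP 20, 0.0136% for DEHP 200 and 0.00678% for vehicle. Of the 37, 13 had the same sign in all 5 treatments. Those were 9 higher at 3 months (Ppard, Rxra, Plin2, Cpt1a, Hadhb, Ehhadh, Ucp2, Me1 and Scd1) and 4 lower (Pparg, Fabp5, Cpt1b and Acot1). The same count was not made over all genes, so 13 of 37 cannot be read as a trait of these genes.

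**Figure D2:**
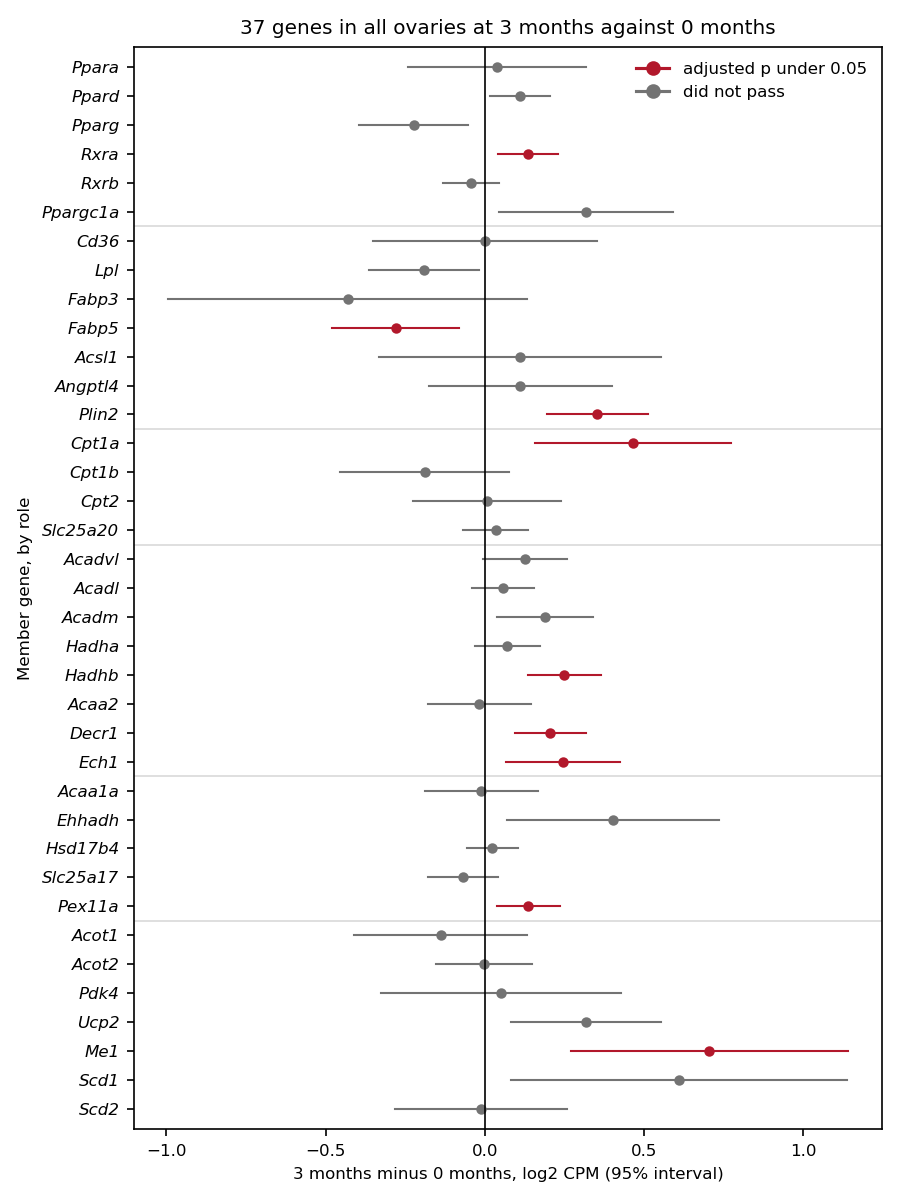
Log2 difference between all 15 ovaries at 3 months and all 15 at 0 months for each of the 37 genes, grouped by role; points are limma estimates in log2 CPM, bars are 95% intervals, and red points and bars passed at an adjusted p under 0.05. Me1 (0.71), Cpt1a (0.47) and Plin2 (0.35) lie farthest right among the genes that passed, and Fabp5 (-0.28) is the gene that passed on the left.

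Among the receptors, Ppara encodes PPAR alpha, the form that dominates fatty acid oxidation in liver. At 3 months Ppara stood at 5.01, 4.55 and 4.58 log2 CPM after DEHP 20 and 4.48, 5.16 and 4.95 after DEHP 200. It stood at 4.82, 4.56 and 5.27 log2 CPM after DiNP 20 and 3.97, 4.69 and 3.86 after DiNP 100, against 5.26, 4.63 and 4.49 in vehicle ovaries. Replicates 1 and 3 of DiNP 100 were the lowest of that time and lay under all vehicle libraries, but replicate 2 lay inside their range. The mean after DiNP 100 was 4.18 against 4.80 log2 CPM in vehicle, a log2 difference of -0.62 ± 0.30 (SE, 95% interval -1.24 to 0.00, adjusted p = 0.518, limma). In the same ovaries the corpus luteum markers averaged 10.85, 10.01 and 10.64 log2 CPM after DiNP 100 and 8.91, 10.20 and 10.84 in vehicle. Over the 15 libraries of 3 months Ppara and that marker mean had a Pearson r of -0.79, with its tests given beside those of Cpt1a and Me1 further on. At 0 months Ppara was at 5.06, 4.83 and 4.59 log2 CPM after DEHP 20 and 5.14, 3.82 and 4.68 after DEHP 200. Ppara measured 4.29, 4.77 and 4.58 log2 CPM after DiNP 20 and 4.90, 4.69 and 4.06 after DiNP 100, against 4.92, 4.46 and 4.91 in vehicle ovaries. All 4 treated groups overlapped vehicle at 0 months, and over all ovaries Ppara averaged 4.69 at 3 months against 4.65 log2 CPM at 0 months (adjusted p = 0.866, limma).

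Ppard encodes PPAR delta, a widely expressed form, and its levels lay in a narrow range. At 3 months Ppard stood at 4.90, 4.92 and 5.08 log2 CPM after DEHP 20 and 4.95, 4.92 and 5.11 after DEHP 200. It stood at 5.10, 5.0 and 5.15 log2 CPM after DiNP 20 and 5.05, 5.02 and 4.86 after DiNP 100, against 4.97, 5.11 and 5.02 in vehicle ovaries. The 15 libraries spanned 4.86 to 5.15 log2 CPM, and every treated group overlapped vehicle. At 0 months Ppard was at 5.07, 4.72 and 4.91 log2 CPM after DEHP 20 and 5.01, 4.84 and 4.77 after DEHP 200. Ppard measured 4.96, 4.97 and 4.70 log2 CPM after DiNP 20 and 5.0, 4.97 and 4.83 after DiNP 100, against 5.0, 4.92 and 4.83 in vehicle ovaries. Its 8 log2 differences from vehicle ran from -0.07 to 0.05, and over all ovaries it averaged 5.01 at 3 months against 4.90 log2 CPM at 0 months, a log2 difference of 0.11 ± 0.05 (SE, 95% interval 0.02 to 0.20, adjusted p = 0.0871, limma).

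Pparg encodes PPAR gamma, the adipocyte form that granulosa cells also make. At 3 months Pparg stood at 5.63, 5.69 and 5.41 log2 CPM after DEHP 20 and 5.25, 5.63 and 5.35 after DEHP 200. It stood at 5.40, 5.48 and 5.93 log2 CPM after DiNP 20 and 5.71, 5.84 and 5.82 after DiNP 100, against 5.68, 5.76 and 5.46 in vehicle ovaries. After DiNP 100 all 3 libraries were at 5.71 or more, and the vehicle libraries reached into that range. At 0 months Pparg was at 5.59, 5.79 and 5.97 log2 CPM after DEHP 20 and 5.83, 5.73 and 5.97 after DEHP 200. Pparg measured 5.56, 5.34 and 6.30 log2 CPM after DiNP 20 and 5.90, 5.58 and 6.0 after DiNP 100, against 5.82, 6.15 and 5.88 in vehicle ovaries. Replicate 3 of DiNP 20 was the highest of all 30 libraries and replicate 2 of that group the lowest of the 0-month ones, so this group alone spanned the rest. Over all ovaries Pparg was at 5.25 to 5.93 log2 CPM (median 5.63) at 3 months and 5.34 to 6.30 log2 CPM (median 5.83) at 0 months, a log2 difference of -0.22 ± 0.08 (SE, 95% interval -0.40 to -0.05, adjusted p = 0.0588, limma). Of the 12 granulosa markers 11 passed as lower at 3 months, beside 9.63% of all genes. The mean of the 12 was 7.05 to 8.02 log2 CPM at 3 months against 7.72 to 8.58 at 0 months. Their part in the Pparg values was not tested.

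Rxra and Rxrb encode retinoid X receptors alpha and beta, the partners with which PPARs bind DNA. At 3 months Rxra stood at 6.50, 6.46 and 6.47 log2 CPM after DEHP 20 and 6.54, 6.51 and 6.52 after DEHP 200. It stood at 6.56, 6.60 and 6.56 log2 CPM after DiNP 20 and 6.38, 6.55 and 6.48 after DiNP 100, against 6.59, 6.48 and 6.53 in vehicle ovaries. The whole 3-month range, 6.38 to 6.60 log2 CPM, was narrow and shared by all treatments. At 0 months Rxra was at 6.35, 6.38 and 6.37 log2 CPM after DEHP 20 and 6.53, 6.15 and 6.57 after DEHP 200. Rxra measured 6.34, 6.53 and 6.18 log2 CPM after DiNP 20 and 6.53, 6.48 and 6.16 after DiNP 100, against 6.45, 6.31 and 6.38 in vehicle ovaries. The low libraries at 0 months were DEHP 200 replicate 2, DiNP 100 replicate 3 and DiNP 20 replicate 3, all from treated groups that also held higher values. All 15 libraries of 3 months lay at or above 6.38 and above the 0-month median, and Rxra averaged 6.52 at 3 months against 6.38 log2 CPM at 0 months, a log2 difference of 0.14 ± 0.05 (SE, 95% interval 0.04 to 0.23, adjusted p = 0.0386, limma). The call was lost when any of 15 of the 30 libraries was left out, with the highest adjusted p, 0.0725, and a log2 difference of 0.12 without DiNP 20 at 0 months replicate 3 (limma).

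Rxra has 2 annotated start sites in the RefSeq table of GRCm38.p6 promoters, windows of 250 bases before and 50 after a start. The window of the downstream site held a 13-base match, with 2 mismatches, to the direct repeat that PPAR and RXR are known to bind (AGGTCANAGGTCA), at positions -75 to -63 from the start and on the gene's strand. It is shown because Rxra is the receptor gene that passed the test over time. It lies at chr2:27709194-27709253 on the plus strand, upstream of the start, and capitals mark the match.
Rxra: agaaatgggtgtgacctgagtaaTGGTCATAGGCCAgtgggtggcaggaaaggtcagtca

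At 3 months Rxrb stood at 5.99, 5.89 and 5.84 log2 CPM after DEHP 20 and 5.69, 5.97 and 5.83 after DEHP 200. It stood at 5.91, 5.84 and 5.93 log2 CPM after DiNP 20 and 5.92, 5.92 and 6.12 after DiNP 100, against 6.09, 5.84 and 5.74 in vehicle ovaries. Each treated group overlapped vehicle. At 0 months Rxrb was at 5.87, 5.86 and 5.97 log2 CPM after DEHP 20 and 5.93, 5.86 and 6.09 after DEHP 200. Rxrb measured 5.97, 6.0 and 5.93 log2 CPM after DiNP 20 and 6.03, 6.05 and 5.79 after DiNP 100, against 6.04, 5.91 and 5.89 in vehicle ovaries. Its log2 difference over time was -0.04 ± 0.04 (SE, adjusted p = 0.5, limma), and its differences from vehicle ran from -0.06 to 0.10.

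Ppargc1a encodes the coactivator PGC-1 alpha, which is known to drive mitochondrial biogenesis and oxidation in muscle and brown fat, and it was at the low end of the levels tested. At 3 months Ppargc1a stood at 1.45, 2.01 and 1.66 log2 CPM after DEHP 20 and 1.42, 1.22 and 1.17 after DEHP 200. It stood at 1.66, 2.05 and 1.15 log2 CPM after DiNP 20 and 1.38, 1.77 and 0.83 after DiNP 100, against 1.15, 1.40 and 1.32 in vehicle ovaries. All 3 DEHP 20 libraries were above all 3 vehicle libraries at 3 months, a log2 difference of 0.42 ± 0.30 (SE, adjusted p = 1, limma). At 0 months Ppargc1a was at 0.62, 1.31 and 0.62 log2 CPM after DEHP 20 and 1.21, 1.18 and 1.53 after DEHP 200. Ppargc1a measured 0.50, 1.80 and 0.90 log2 CPM after DiNP 20 and 1.05, 1.17 and 1.10 after DiNP 100, against 0.98, 1.32 and 1.55 in vehicle ovaries. At 0 months the DEHP 20 mean was under the vehicle mean, with a log2 difference of -0.43 ± 0.30 (SE), and the groups overlapped. Over time Ppargc1a averaged 1.44 at 3 months against 1.12 log2 CPM at 0 months, a log2 difference of 0.32 ± 0.13 (SE, 95% interval 0.05 to 0.59, adjusted p = 0.0876, limma).

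**Figure D3:**
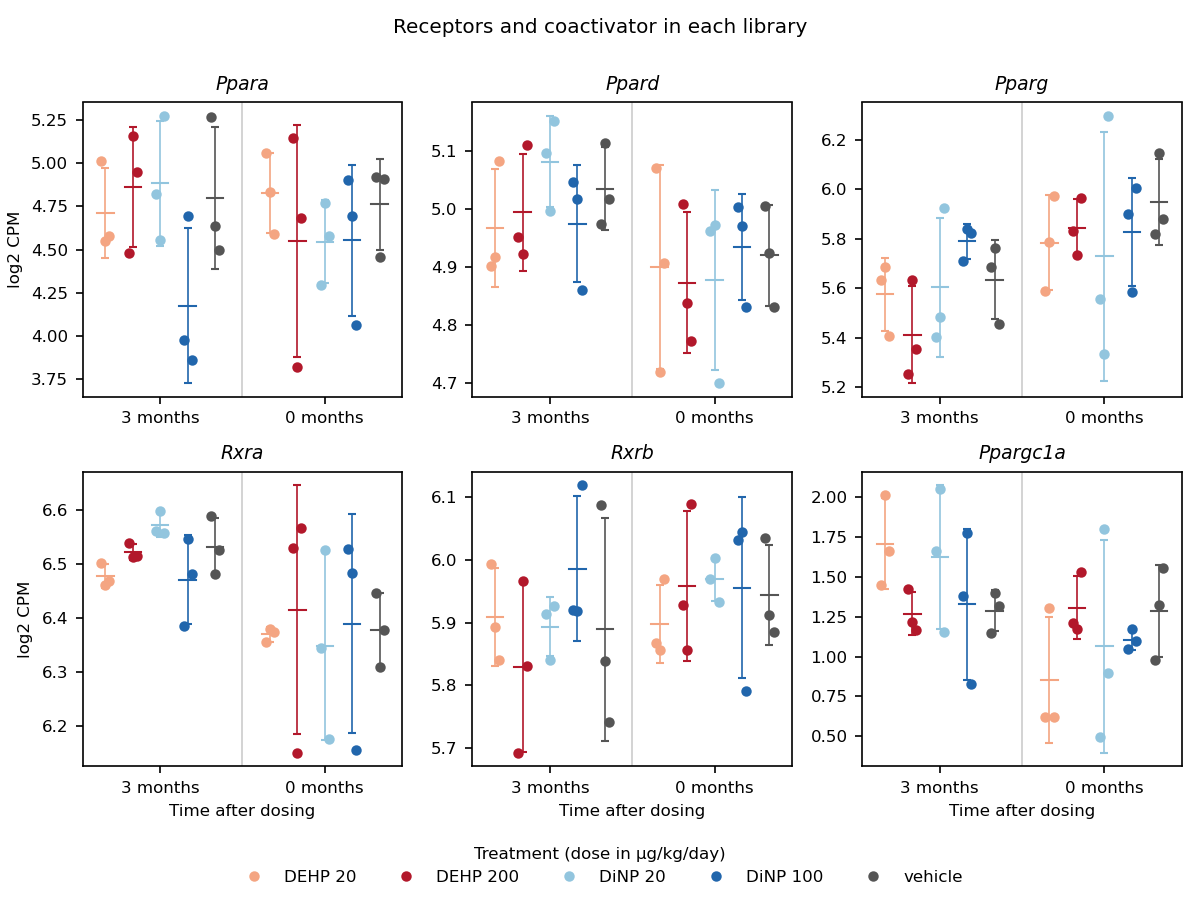
Level in log2 CPM of the 6 receptor and coactivator genes in every library, with the 4 phthalate groups left of vehicle and 3 months left of 0 months; points are libraries, horizontal bars group means and error bars SD of 3 libraries. Rxra lay at 6.38 to 6.60 at 3 months and 6.15 to 6.57 at 0 months, and Ppara after DiNP 100 at 3 months averaged 4.18 against 4.80 in vehicle.

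Of the 7 genes of fatty acid uptake, binding and storage, Plin2 passed as higher over time and Fabp5 as lower. Plin2 encodes perilipin 2, which coats lipid droplets, including those of steroid-making cells. At 3 months Plin2 stood at 6.41, 6.49 and 6.43 log2 CPM after DEHP 20 and 6.34, 6.39 and 6.14 after DEHP 200. It stood at 6.54, 6.64 and 6.10 log2 CPM after DiNP 20 and 6.43, 6.14 and 6.81 after DiNP 100, against 6.23, 6.17 and 6.23 in vehicle ovaries. The 3 vehicle libraries lay close together, and all 3 DEHP 20 libraries were above them. At 0 months Plin2 was at 5.77, 5.65 and 5.70 log2 CPM after DEHP 20 and 5.96, 6.21 and 6.22 after DEHP 200. Plin2 measured 6.20, 6.42 and 5.59 log2 CPM after DiNP 20 and 6.06, 6.41 and 6.05 after DiNP 100, against 5.94, 6.0 and 6.04 in vehicle ovaries. Here all 3 DEHP 20 libraries were below vehicle and all 3 DiNP 100 libraries above it. The log2 difference of DEHP 20 from vehicle was 0.23 ± 0.17 at 3 months and -0.28 ± 0.17 at 0 months (SE, adjusted p = 1 and 1, limma). In the same DEHP 20 ovaries the mean of 4 oviduct markers at 3 months was 1.74, 4.39 and 2.14, against 0.02, 0.22 and 0.94 log2 CPM in vehicle. At 0 months the mean of 8 surface epithelium markers was 3.08, 3.19 and 3.52 after DEHP 20, against 3.70, 3.79 and 3.99 log2 CPM in vehicle. The oviduct markers were also above vehicle in all 3 libraries of DEHP 200 at 3 months, and the surface epithelium markers below it in all 3 libraries of DEHP 200 and DiNP 100 at 0 months. After DiNP 100 at 0 months the macrophage marker mean was 4.31 to 4.62, against 3.90 to 4.21 log2 CPM in vehicle. Every marker list was looked at in all 8 comparisons with vehicle, and these were the only list means that lay apart. For single genes, 7.25% of such results over all genes lay apart. The part of these cell types in the Plin2 differences was not tested.

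Over all ovaries Plin2 was at 6.10 to 6.81 log2 CPM (median 6.39) at 3 months and 5.59 to 6.42 log2 CPM (median 6.04) at 0 months. All 15 libraries of 3 months were above the 0-month median, though the ranges overlapped. The means were 6.37 at 3 months against 6.01 log2 CPM at 0 months, a log2 difference of 0.35 ± 0.08 (SE, 95% interval 0.19 to 0.51, adjusted p = 0.00379, limma), or 1.28-fold. The log2 difference between times was 0.74 after DEHP 20, 0.16 after DEHP 200, 0.36 after DiNP 20, 0.29 after DiNP 100 and 0.22 in vehicle. Plin2 passed whichever of the 30 libraries was left out, at an adjusted p of 0.00162 to 0.00825 (limma). The macrophage marker mean also moved with time, at 4.33 to 5.40 log2 CPM at 3 months and 3.59 to 4.62 at 0 months. Of 10 macrophage markers 9 passed upward, beside 10.6% of all genes. The part of these cells, and of luteal cells, in the Plin2 result was not tested.

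The Plin2 promoter window of the same table, on the minus strand, held a match with 2 mismatches to the repeat at positions -225 to -213 from the start, on the strand opposite to the gene. The stretch at chr4:86670248-86670307 is upstream of the transcript and is written on the gene's strand, with the match in capitals. The Cd36 stretch at chr5:17835923-17835982, also on the minus strand, lies upstream of a start site within the gene's annotated span (17781690 to 17888959). It holds such a match at positions -63 to -51 from that start, again opposite to the gene. Both are shown because they belong to textbook PPAR target genes of this group, 1 that passed over time and 1 that did not.
Plin2: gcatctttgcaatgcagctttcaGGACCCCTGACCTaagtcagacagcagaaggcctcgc
Cd36: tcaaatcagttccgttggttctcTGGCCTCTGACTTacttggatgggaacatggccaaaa

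Of the 37 genes 28 had 1 or more windows, 34 in all. A repeat with at most 2 mismatches on either strand was found in 4 of these 34 (11.8%; Cd36, Plin2, Rxra and Slc25a20), against 3.86% of all 32851 windows in the table. With at most 1 mismatch it was in 0 of 34, against 0.554% of all windows, and without a mismatch in 0 of 34, against 0.0396%. The single hexamer AGGTCA was in 8 of 34 (23.5%), against 16.3% of all windows; a repeat match may contain this hexamer. These are letter matches in a short window, not binding sites.

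Cd36 encodes a fatty acid translocase of the cell surface. At 3 months Cd36 stood at 5.71, 5.63 and 5.80 log2 CPM after DEHP 20 and 5.36, 6.19 and 5.63 after DEHP 200. It stood at 5.91, 5.49 and 6.02 log2 CPM after DiNP 20 and 4.93, 6.05 and 5.04 after DiNP 100, against 6.47, 5.68 and 5.02 in vehicle ovaries. The vehicle libraries alone spanned 5.02 to 6.47 log2 CPM and enclosed all treated values but that of DiNP 100 replicate 1. At 0 months Cd36 was at 5.43, 5.89 and 6.07 log2 CPM after DEHP 20 and 6.02, 4.48 and 6.30 after DEHP 200. Cd36 measured 5.73, 5.81 and 5.59 log2 CPM after DiNP 20 and 5.80, 5.87 and 5.24 after DiNP 100, against 5.63, 5.29 and 5.76 in vehicle ovaries. DEHP 200 held both the lowest (replicate 2, 4.48) and the highest (replicate 3, 6.30) library of 0 months, which had the highest and the lowest corpus luteum marker mean of that time, in the same order. Cd36 averaged 5.66 at 3 months against 5.66 log2 CPM at 0 months, a log2 difference of 0.00 ± 0.17 (SE, adjusted p = 0.998, limma).

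Angptl4 encodes a secreted inhibitor of lipoprotein lipase and is a classic PPAR target. At 3 months Angptl4 stood at 7.43, 7.28 and 6.60 log2 CPM after DEHP 20 and 7.34, 6.58 and 7.37 after DEHP 200. It stood at 7.15, 7.79 and 7.42 log2 CPM after DiNP 20 and 7.32, 7.06 and 7.74 after DiNP 100, against 7.10, 7.47 and 6.97 in vehicle ovaries. A library of each DEHP group lay below the vehicle range, at 6.60 and 6.58, and a library of each DiNP group above it, at 7.79 and 7.74. At 0 months Angptl4 was at 7.16, 6.73 and 7.15 log2 CPM after DEHP 20 and 7.18, 7.58 and 7.23 after DEHP 200. Angptl4 measured 7.67, 7.52 and 6.35 log2 CPM after DiNP 20 and 6.84, 7.49 and 6.66 after DiNP 100, against 7.16, 7.41 and 6.80 in vehicle ovaries. The 8 log2 differences from vehicle ran from -0.13 to 0.28, each with an SE of 0.31, and that over time was 0.11 ± 0.14 (SE, adjusted p = 0.605, limma).

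Fabp5 encodes a fatty acid binding protein that is known to carry ligands to PPAR delta. At 3 months Fabp5 stood at 6.24, 5.62 and 6.01 log2 CPM after DEHP 20 and 5.92, 5.72 and 5.50 after DEHP 200. It stood at 5.51, 5.33 and 5.47 log2 CPM after DiNP 20 and 5.29, 5.68 and 5.71 after DiNP 100, against 5.78, 5.09 and 5.68 in vehicle ovaries. The DEHP 20 mean was 5.95 against 5.52 log2 CPM in vehicle, a log2 difference of 0.44 ± 0.22 (SE, 95% interval -0.01 to 0.89, adjusted p = 1, limma), and the groups overlapped. At 0 months Fabp5 was at 6.13, 5.82 and 5.92 log2 CPM after DEHP 20 and 5.88, 6.05 and 6.94 after DEHP 200. Fabp5 measured 5.27, 5.72 and 5.67 log2 CPM after DiNP 20 and 5.86, 5.78 and 5.90 after DiNP 100, against 6.01, 5.90 and 5.88 in vehicle ovaries. All 3 DiNP 20 libraries were below vehicle, a log2 difference of -0.38 ± 0.22 (SE, 95% interval -0.82 to 0.07, adjusted p = 1, limma). Over all ovaries Fabp5 was at 5.09 to 6.24 log2 CPM (median 5.68) at 3 months and 5.27 to 6.94 log2 CPM (median 5.88) at 0 months, and 3 of 15 libraries of 3 months were above the 0-month median. The means were 5.64 at 3 months against 5.92 log2 CPM at 0 months, a log2 difference of -0.28 ± 0.10 (SE, 95% interval -0.48 to -0.08, adjusted p = 0.0435, limma). The log2 difference between times was 0.00 after DEHP 20, -0.58 after DEHP 200, -0.12 after DiNP 20, -0.29 after DiNP 100 and -0.41 in vehicle. The call was lost when any of 18 of the 30 libraries was left out, with the highest adjusted p, 0.0812, without DEHP 20 at 3 months replicate 2 (limma).

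Lpl, the lipase that frees fatty acids from lipoproteins, averaged 6.94 at 3 months against 7.13 log2 CPM at 0 months, a log2 difference of -0.19 ± 0.08 (SE, 95% interval -0.36 to -0.02, adjusted p = 0.106, limma). Acsl1, which activates long-chain fatty acids to acyl-CoA, averaged 5.16 at 3 months against 5.05 log2 CPM at 0 months and was among the most variable genes of the set, from 4.45 to 6.62 log2 CPM over 30 libraries, both ends within DiNP 100 at 0 months. Fabp3, the heart-type binding protein, averaged 4.93 at 3 months against 5.36 log2 CPM at 0 months (adjusted p = 0.268, limma). Fabp3 shares 37.3% of its 31-base words with other transcripts, mainly its pseudogene Fabp3-ps1, so its counts are uncertain.

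In the carnitine shuttle, Cpt1a encodes the outer-membrane acyltransferase that is rate-limiting for mitochondrial oxidation and that PPAR alpha induces in liver. At 3 months Cpt1a stood at 8.37, 8.77 and 8.87 log2 CPM after DEHP 20 and 8.93, 7.80 and 8.96 after DEHP 200. It stood at 8.78, 8.99 and 8.41 log2 CPM after DiNP 20 and 9.19, 8.55 and 8.68 after DiNP 100, against 8.22, 8.67 and 9.09 in vehicle ovaries. Vehicle libraries spanned 8.22 to 9.09 log2 CPM and overlapped every treated group. At 0 months Cpt1a was at 8.40, 7.73 and 8.09 log2 CPM after DEHP 20 and 8.11, 8.69 and 7.36 after DEHP 200. Cpt1a measured 8.72, 8.42 and 8.25 log2 CPM after DiNP 20 and 7.95, 8.31 and 8.95 after DiNP 100, against 7.96, 8.41 and 7.93 in vehicle ovaries. Replicate 3 of DEHP 200 was the lowest library of all 30, at 7.36, and the corpus luteum marker mean was lowest in the same library. Over all ovaries Cpt1a was at 7.80 to 9.19 log2 CPM (median 8.77) at 3 months and 7.36 to 8.95 log2 CPM (median 8.25) at 0 months, with 13 of 15 libraries of 3 months above the 0-month median. The means were 8.69 at 3 months against 8.22 log2 CPM at 0 months, a log2 difference of 0.47 ± 0.15 (SE, 95% interval 0.16 to 0.77, adjusted p = 0.0304, limma), or 1.38-fold. Leaving out a library ended the call in 11 of 30 cases, with the highest adjusted p, 0.0602, and a log2 difference of 0.42 without vehicle at 3 months replicate 3 (limma).

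Cpt2 encodes the inner-membrane acyltransferase of the shuttle. At 3 months Cpt2 stood at 6.47, 6.48 and 6.27 log2 CPM after DEHP 20 and 6.13, 6.16 and 6.49 after DEHP 200. It stood at 6.40, 6.39 and 6.14 log2 CPM after DiNP 20 and 6.72, 6.15 and 6.84 after DiNP 100, against 6.13, 6.54 and 6.66 in vehicle ovaries. All treated groups overlapped vehicle at 3 months. At 0 months Cpt2 was at 6.11, 6.27 and 6.33 log2 CPM after DEHP 20 and 6.08, 7.14 and 5.52 after DEHP 200. Cpt2 measured 6.69, 6.58 and 6.63 log2 CPM after DiNP 20 and 6.37, 6.79 and 6.48 after DiNP 100, against 6.18, 6.45 and 6.27 in vehicle ovaries. All 3 DiNP 20 libraries were above vehicle, a log2 difference of 0.33 ± 0.25 (SE, 95% interval -0.19 to 0.86, adjusted p = 1, limma). DEHP 200 had the highest and the lowest library of all 30. Over time Cpt2 averaged 6.40 at 3 months against 6.39 log2 CPM at 0 months (adjusted p = 0.972, limma).

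Cpt1b encodes the muscle form of the outer-membrane enzyme and was near the filter. At 3 months Cpt1b stood at 1.12, 0.42 and 0.51 log2 CPM after DEHP 20 and 0.54, 1.18 and 0.64 after DEHP 200. It stood at 0.69, 0.66 and 0.95 log2 CPM after DiNP 20 and 0.41, 0.96 and 0.55 after DiNP 100, against 0.66, 1.18 and 0.86 in vehicle ovaries. Every treated group overlapped vehicle. At 0 months Cpt1b was at 0.56, 1.32 and 1.02 log2 CPM after DEHP 20 and 1.27, 0.56 and 1.42 after DEHP 200. Cpt1b measured 1.02, 0.97 and 0.79 log2 CPM after DiNP 20 and 0.41, 1.28 and 0.30 after DiNP 100, against 1.11, 1.25 and 0.87 in vehicle ovaries. After DiNP 100 at 0 months the log2 difference was -0.41 ± 0.29 (SE, 95% interval -1.0 to 0.18, adjusted p = 1, limma). Cpt1b shares 79.7% of its 31-base words with 1 other annotated gene, so its counts are uncertain. Slc25a20, the carrier that moves acylcarnitines across the inner membrane, averaged 5.18 at 3 months against 5.14 log2 CPM at 0 months (adjusted p = 0.656, limma).

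Of the 8 genes of mitochondrial beta-oxidation, 3 were higher at 3 months and 0 were lower past the test, beside 10.6% and 9.63% of all genes. The median log2 difference of the 8 was 0.16, against 0.00 over all genes. Hadha and Hadhb encode the alpha and beta subunits of the trifunctional protein, which carries out the later steps of long-chain oxidation. At 3 months Hadhb stood at 8.11, 7.81 and 8.13 log2 CPM after DEHP 20 and 8.04, 7.76 and 7.85 after DEHP 200. It stood at 7.93, 8.10 and 8.12 log2 CPM after DiNP 20 and 7.95, 7.71 and 8.17 after DiNP 100, against 8.06, 7.92 and 7.86 in vehicle ovaries. Treated and vehicle libraries overlapped in every group. At 0 months Hadhb was at 7.72, 7.52 and 7.68 log2 CPM after DEHP 20 and 7.87, 7.83 and 7.63 after DEHP 200. Hadhb measured 7.79, 7.78 and 7.47 log2 CPM after DiNP 20 and 7.75, 7.76 and 7.61 after DiNP 100, against 7.84, 7.58 and 7.93 in vehicle ovaries. Each treated range overlapped that of vehicle at 0 months. Over all ovaries Hadhb was at 7.71 to 8.17 log2 CPM (median 7.95) at 3 months and 7.47 to 7.93 log2 CPM (median 7.75) at 0 months, and 14 of 15 libraries of 3 months were above the 0-month median. The means were 7.97 at 3 months against 7.72 log2 CPM at 0 months, a log2 difference of 0.25 ± 0.06 (SE, 95% interval 0.13 to 0.37, adjusted p = 0.00448, limma), or 1.19-fold. The call held with each of the 30 libraries left out in turn, at an adjusted p of 0.0018 to 0.0096 (limma). Hadhb shares 23.3% of its 31-base words with other transcripts, 19.5% with 1 predicted gene.

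The partner subunit gave a smaller value. Hadha was at 8.28 to 8.64 log2 CPM (median 8.48) at 3 months and 8.22 to 8.69 log2 CPM (median 8.41) at 0 months, so the ranges nearly coincided. It averaged 8.49 at 3 months against 8.42 log2 CPM at 0 months, a log2 difference of 0.07 ± 0.05 (SE, 95% interval -0.03 to 0.17, adjusted p = 0.316, limma). The difference between the subunits' values was itself not tested. These genes lie head to head on chromosome 5 of GRCm38.p6, with Hadha on the minus strand from 30154980 and Hadhb on the plus strand from 30155253, leaving 272 bases between the start sites. Their promoter windows overlap by 228 bases and hold no AGGTCA hexamer. The 250 bases before the Hadhb start, chr5:30155003-30155252 on the plus strand, are shown because they lie between the 2 start sites.
Hadhb: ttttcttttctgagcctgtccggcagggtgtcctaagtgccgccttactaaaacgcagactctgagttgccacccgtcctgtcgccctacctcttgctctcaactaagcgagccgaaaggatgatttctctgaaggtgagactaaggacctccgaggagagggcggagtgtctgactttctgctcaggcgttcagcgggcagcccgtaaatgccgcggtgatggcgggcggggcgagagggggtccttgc

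Decr1 encodes the mitochondrial dienoyl-CoA reductase needed to oxidise polyunsaturated fatty acids. At 3 months Decr1 stood at 6.32, 6.32 and 6.36 log2 CPM after DEHP 20 and 6.39, 5.89 and 6.19 after DEHP 200. It stood at 6.31, 6.28 and 6.18 log2 CPM after DiNP 20 and 6.41, 6.21 and 6.71 after DiNP 100, against 6.20, 6.31 and 6.30 in vehicle ovaries. All 3 DEHP 20 libraries were narrowly above the highest vehicle value, and the other treated groups overlapped vehicle. At 0 months Decr1 was at 6.11, 6.09 and 6.06 log2 CPM after DEHP 20 and 6.17, 6.43 and 6.04 after DEHP 200. Decr1 measured 5.96, 6.14 and 5.93 log2 CPM after DiNP 20 and 6.04, 6.14 and 6.10 after DiNP 100, against 6.11, 5.86 and 6.13 in vehicle ovaries. The 0-month groups all overlapped vehicle. Over all ovaries Decr1 was at 5.89 to 6.71 log2 CPM (median 6.31) at 3 months and 5.86 to 6.43 log2 CPM (median 6.10) at 0 months, and 14 of 15 libraries of 3 months were above the 0-month median. The means were 6.29 at 3 months against 6.09 log2 CPM at 0 months, a log2 difference of 0.21 ± 0.05 (SE, 95% interval 0.09 to 0.32, adjusted p = 0.0116, limma), or 1.15-fold. It passed with each of the 30 libraries left out in turn, at an adjusted p of 0.00354 to 0.023 (limma). After DEHP 200 the log2 difference between times was -0.06, against 0.24 in vehicle.

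Ech1 encodes a dienoyl-CoA isomerase of mitochondria and peroxisomes that rearranges double bonds. At 3 months Ech1 stood at 7.11, 7.35 and 7.70 log2 CPM after DEHP 20 and 7.58, 7.02 and 7.22 after DEHP 200. It stood at 7.45, 7.50 and 7.31 log2 CPM after DiNP 20 and 7.63, 7.39 and 8.14 after DiNP 100, against 7.17, 7.39 and 7.74 in vehicle ovaries. Replicate 3 of DiNP 100, at 8.14, was the highest library. At 0 months Ech1 was at 7.27, 6.94 and 7.29 log2 CPM after DEHP 20 and 7.21, 7.68 and 7.28 after DEHP 200. Ech1 measured 7.33, 7.22 and 7.11 log2 CPM after DiNP 20 and 6.88, 7.07 and 7.39 after DiNP 100, against 7.19, 7.03 and 7.12 in vehicle ovaries. The DEHP 200 libraries of 0 months were all above vehicle, and the ranges of the other treated groups overlapped it. Over all ovaries Ech1 was at 7.02 to 8.14 log2 CPM (median 7.39) at 3 months and 6.88 to 7.68 log2 CPM (median 7.21) at 0 months. The means were 7.45 at 3 months against 7.20 log2 CPM at 0 months, a log2 difference of 0.25 ± 0.09 (SE, 95% interval 0.07 to 0.42, adjusted p = 0.046, limma). The call was lost when any of 20 of the 30 libraries was left out, with the highest adjusted p, 0.09, without vehicle at 3 months replicate 3 (limma).

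The acyl-CoA dehydrogenases start each round of oxidation on chains of a given length. Acadm, for medium chains, had at 3 months 7.12, 7.11 and 7.49 log2 CPM after DEHP 20 and 7.20, 6.85 and 7.18 after DEHP 200. It had 7.09, 7.16 and 7.06 log2 CPM after DiNP 20 and 7.24, 6.89 and 7.47 after DiNP 100, against 7.12, 7.13 and 7.14 in vehicle ovaries. The vehicle libraries of 3 months lay close together, and every treated group had values on both sides of them. At 0 months Acadm was at 7.23, 6.71 and 6.79 log2 CPM after DEHP 20 and 6.99, 7.52 and 6.84 after DEHP 200. Acadm measured 6.87, 6.97 and 6.86 log2 CPM after DiNP 20 and 6.91, 6.84 and 7.12 after DiNP 100, against 6.87, 6.83 and 7.07 in vehicle ovaries. No 0-month group was apart from vehicle. Acadm averaged 7.15 at 3 months against 6.96 log2 CPM at 0 months, a log2 difference of 0.19 ± 0.07 (SE, 95% interval 0.04 to 0.34, adjusted p = 0.0669, limma).

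Acadl, for long chains, had at 3 months 7.24, 6.97 and 7.09 log2 CPM after DEHP 20 and 7.23, 6.99 and 6.89 after DEHP 200. It had 6.98, 7.08 and 7.23 log2 CPM after DiNP 20 and 7.04, 6.86 and 7.22 after DiNP 100, against 7.16, 7.10 and 6.85 in vehicle ovaries. All groups overlapped at 3 months. At 0 months Acadl was at 6.79, 6.89 and 6.95 log2 CPM after DEHP 20 and 7.16, 7.14 and 6.98 after DEHP 200. Acadl measured 6.86, 6.93 and 7.01 log2 CPM after DiNP 20 and 7.03, 7.07 and 6.91 after DiNP 100, against 7.09, 7.09 and 7.16 in vehicle ovaries. The DEHP 20, DiNP 20 and DiNP 100 libraries were all below the 3 vehicle libraries, which they share as the point of comparison. For DEHP 20 the log2 difference was -0.24 ± 0.10 (SE, 95% interval -0.45 to -0.02, unadjusted p = 0.0343, adjusted p = 1, limma). Acadvl, for very long chains, averaged 6.80 at 3 months against 6.67 log2 CPM at 0 months (adjusted p = 0.166, limma). Its highest library was DiNP 100 at 3 months replicate 3, at 7.40 log2 CPM, beside 6.99 and 6.56 in replicates 1 and 2 of that group and 6.62, 6.79 and 6.75 in vehicle. Acaa2, the mitochondrial thiolase that releases acetyl-CoA, averaged 7.60 at 3 months against 7.61 log2 CPM at 0 months (adjusted p = 0.9, limma).

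With all libraries 0 of 14740 genes passed for DiNP 100 against vehicle at 3 months. Calls among the 37 for this group appeared when its replicate 2 was left out, and so rested on its replicates 1 and 3. Without its replicate 2, the comparison with vehicle called 633 genes and 1 of the 37, Acadvl, with a log2 difference of 0.47 ± 0.13 (SE, adjusted p = 0.0468, limma). With all libraries that difference was 0.26 ± 0.14 (SE, adjusted p = 0.521, limma). Without the same library the DiNP 100 ovaries also differed between times at 2071 genes and 3 of the 37. Those were Acadvl (0.54 ± 0.13, adjusted p = 0.0198), Decr1 (0.47 ± 0.13, adjusted p = 0.0253) and Ech1 (0.77 ± 0.20, adjusted p = 0.0242), as log2 differences ± SE in limma. Corpus luteum markers averaged 10.85 and 10.64 log2 CPM in the other 2 libraries of the group, against 10.01 in replicate 2, and their part in these values was not tested.

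Of the 5 genes of peroxisomal oxidation and the peroxisome, only Pex11a passed over time, against 20.3% of all genes. Ehhadh encodes the peroxisomal bifunctional enzyme, in rodent liver a sensitive PPAR alpha target. At 3 months Ehhadh stood at 2.37, 3.14 and 3.70 log2 CPM after DEHP 20 and 3.19, 2.11 and 2.90 after DEHP 200. It stood at 2.60, 3.48 and 2.29 log2 CPM after DiNP 20 and 3.11, 2.54 and 2.82 after DiNP 100, against 2.26, 2.64 and 3.39 in vehicle ovaries. The spread within DEHP 20, 2.37 to 3.70, was wider than any difference between group means. At 0 months Ehhadh was at 3.06, 2.45 and 2.62 log2 CPM after DEHP 20 and 2.22, 2.76 and 2.07 after DEHP 200. Ehhadh measured 2.90, 2.80 and 2.08 log2 CPM after DiNP 20 and 2.07, 2.44 and 2.47 after DiNP 100, against 2.16, 1.97 and 2.43 in vehicle ovaries. All 3 DEHP 20 libraries lay above vehicle at 0 months, a log2 difference of 0.52 ± 0.36 (SE, 95% interval -0.22 to 1.26, adjusted p = 1, limma). Over time Ehhadh averaged 2.84 at 3 months against 2.43 log2 CPM at 0 months, a log2 difference of 0.40 ± 0.16 (SE, 95% interval 0.07 to 0.73, adjusted p = 0.0772, limma).

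Pex11a encodes a membrane protein that promotes the division of peroxisomes. At 3 months Pex11a stood at 4.55, 4.25 and 4.53 log2 CPM after DEHP 20 and 4.52, 4.52 and 4.24 after DEHP 200. It stood at 4.41, 4.56 and 4.41 log2 CPM after DiNP 20 and 4.44, 4.32 and 4.29 after DiNP 100, against 4.64, 4.45 and 4.47 in vehicle ovaries. All 3 DiNP 100 libraries were below vehicle, with a log2 difference of -0.17 ± 0.11 (SE, adjusted p = 0.544, limma). At 0 months Pex11a was at 4.47, 4.33 and 4.29 log2 CPM after DEHP 20 and 4.42, 4.44 and 4.44 after DEHP 200. Pex11a measured 4.14, 4.32 and 4.30 log2 CPM after DiNP 20 and 4.35, 4.14 and 4.15 after DiNP 100, against 4.27, 4.10 and 4.39 in vehicle ovaries. All 3 DEHP 200 libraries were above vehicle, with a log2 difference of 0.18 ± 0.11 (SE, 95% interval -0.04 to 0.40, adjusted p = 0.914, limma). Over all ovaries Pex11a was at 4.24 to 4.64 log2 CPM (median 4.45) at 3 months and 4.10 to 4.47 log2 CPM (median 4.32) at 0 months. The means were 4.44 at 3 months against 4.30 log2 CPM at 0 months, a log2 difference of 0.14 ± 0.05 (SE, 95% interval 0.04 to 0.24, adjusted p = 0.0441, limma). The call was lost when any of 19 of the 30 libraries was left out, with the highest adjusted p, 0.0773, without DEHP 200 at 3 months replicate 1 (limma).

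Slc25a17 encodes a peroxisomal carrier of cofactors such as coenzyme A. At 3 months Slc25a17 stood at 5.12, 5.16 and 5.24 log2 CPM after DEHP 20 and 5.0, 4.78 and 4.94 after DEHP 200. It stood at 5.29, 5.03 and 5.19 log2 CPM after DiNP 20 and 5.16, 5.38 and 5.37 after DiNP 100, against 5.08, 5.40 and 5.42 in vehicle ovaries. All 3 DEHP 200 libraries were below all vehicle libraries and below every other library of 3 months. The means were 4.91 after DEHP 200 and 5.30 log2 CPM in vehicle, a log2 difference of -0.40 ± 0.12 (SE, 95% interval -0.64 to -0.15, unadjusted p = 0.00295, adjusted p = 1, limma). At 0 months Slc25a17 was at 5.16, 5.49 and 5.48 log2 CPM after DEHP 20 and 5.43, 5.26 and 5.09 after DEHP 200. Slc25a17 measured 5.08, 5.35 and 4.99 log2 CPM after DiNP 20 and 5.28, 5.31 and 5.08 after DiNP 100, against 5.21, 5.21 and 5.15 in vehicle ovaries. There the DEHP 200 libraries overlapped vehicle, and the log2 difference was 0.07 ± 0.12 (SE, adjusted p = 0.956, limma). Acaa1a, the peroxisomal thiolase, averaged 6.19 at 3 months against 6.20 log2 CPM at 0 months (adjusted p = 0.94, limma); it shares 18.1% of its 31-base words with other transcripts, mainly its paralog Acaa1b. Hsd17b4, the D-bifunctional enzyme, averaged 7.09 at 3 months against 7.06 log2 CPM at 0 months (adjusted p = 0.699, limma), with a within-group SD of 0.10 log2, the smallest of the 37.

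Among the remaining 7 genes, Pdk4 encodes the kinase that turns off pyruvate dehydrogenase when fat is burned. At 3 months Pdk4 stood at 5.48, 4.42 and 4.88 log2 CPM after DEHP 20 and 4.46, 5.37 and 4.32 after DEHP 200. It stood at 4.51, 5.15 and 5.04 log2 CPM after DiNP 20 and 4.21, 5.21 and 4.54 after DiNP 100, against 5.37, 4.97 and 4.27 in vehicle ovaries. Treated libraries ran from 4.21 to 5.48 log2 CPM and vehicle libraries from 4.27 to 5.37. At 0 months Pdk4 was at 4.51, 4.80 and 5.19 log2 CPM after DEHP 20 and 5.05, 3.43 and 4.96 after DEHP 200. Pdk4 measured 4.77, 4.99 and 4.50 log2 CPM after DiNP 20 and 5.29, 5.31 and 4.10 after DiNP 100, against 5.0, 4.82 and 4.74 in vehicle ovaries. Replicate 2 of DEHP 200 was the lowest of all 30, at 3.43, in the library with the highest corpus luteum marker mean of 0 months. The log2 difference over time was 0.05 ± 0.18 (SE, adjusted p = 0.874, limma).

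Me1 encodes cytosolic malic enzyme, which supplies NADPH for lipid and steroid synthesis. At 3 months Me1 stood at 10.41, 11.26 and 11.50 log2 CPM after DEHP 20 and 11.18, 10.13 and 11.35 after DEHP 200. It stood at 11.13, 11.01 and 10.51 log2 CPM after DiNP 20 and 11.42, 10.57 and 11.39 after DiNP 100, against 10.20, 10.83 and 11.17 in vehicle ovaries. Every treated mean was above the vehicle mean, but all groups overlapped vehicle at 3 months. At 0 months Me1 was at 11.02, 9.44 and 10.02 log2 CPM after DEHP 20 and 9.82, 11.29 and 9.14 after DEHP 200. Me1 measured 10.68, 10.52 and 10.44 log2 CPM after DiNP 20 and 9.89, 10.18 and 11.14 after DiNP 100, against 9.72, 9.97 and 10.19 in vehicle ovaries. All 3 DiNP 20 libraries lay above vehicle, a log2 difference of 0.59 ± 0.47 (SE, 95% interval -0.39 to 1.56, adjusted p = 1, limma). DEHP 200 ran from 9.14 to 11.29 within the group.

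Over all ovaries Me1 was at 10.13 to 11.50 log2 CPM (median 11.13) at 3 months and 9.14 to 11.29 log2 CPM (median 10.18) at 0 months, and 14 of 15 libraries of 3 months were above the 0-month median. The means were 10.94 at 3 months against 10.23 log2 CPM at 0 months, a log2 difference of 0.71 ± 0.21 (SE, 95% interval 0.27 to 1.14, adjusted p = 0.0221, limma), or 1.63-fold. The log2 difference between times was 0.90 after DEHP 20, 0.80 after DEHP 200, 0.34 after DiNP 20, 0.72 after DiNP 100 and 0.77 in vehicle. It passed with each of the 30 libraries left out in turn, at an adjusted p of 0.00313 to 0.0438 (limma). Me1 shares 30% of its 31-base words with other transcripts, 28.6% with 1 predicted gene, so part of its count is uncertain.

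**Figure D4:**
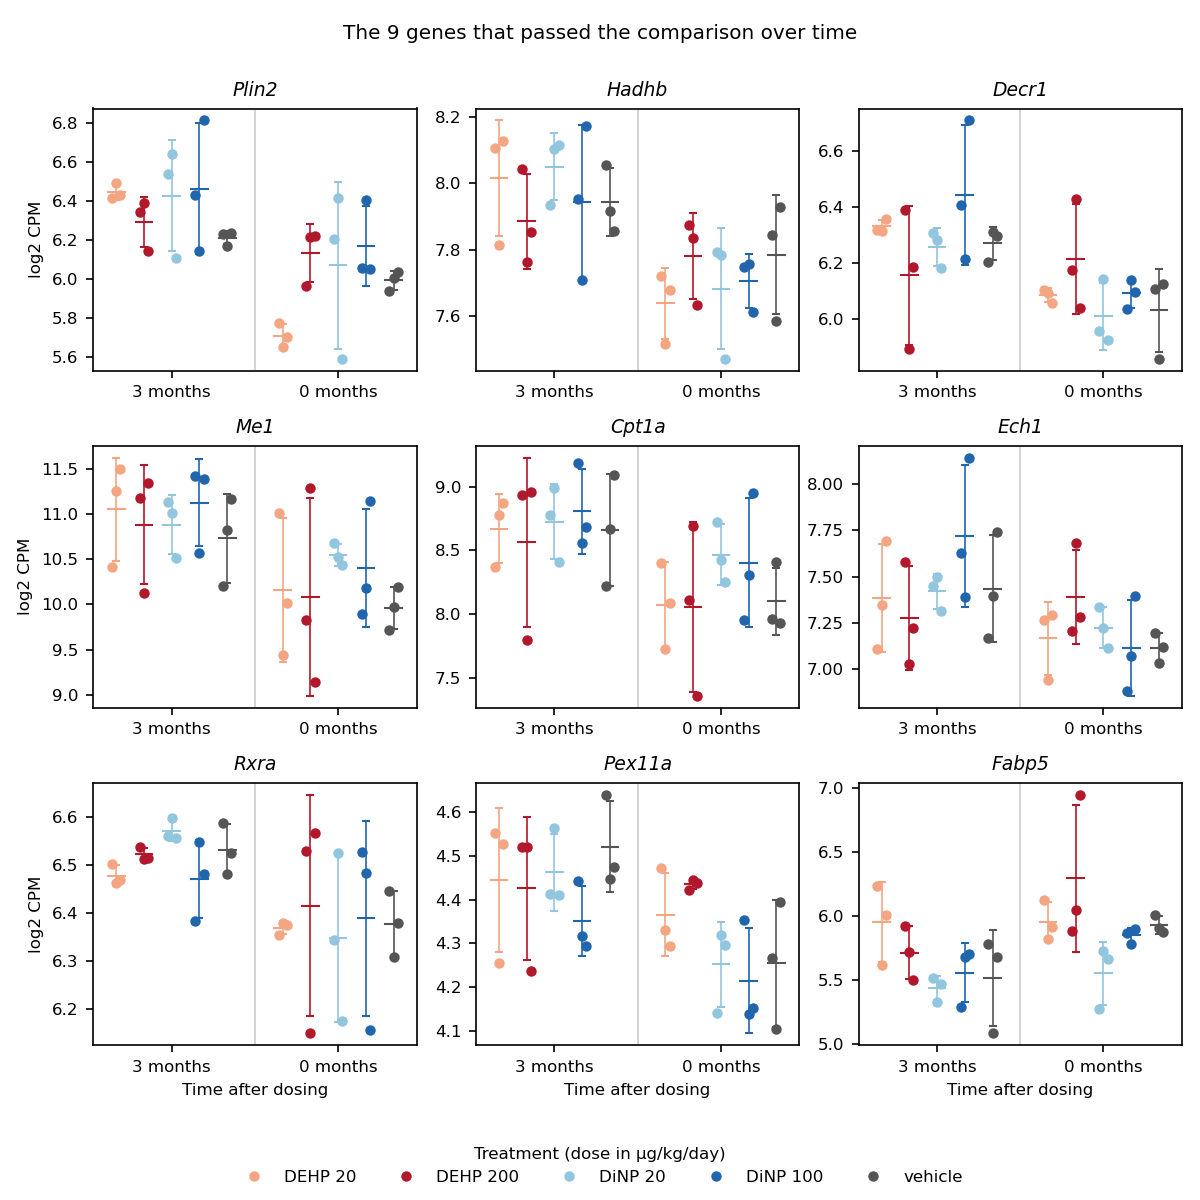
Level in log2 CPM of the 9 genes that passed between all ovaries at 3 months and all ovaries at 0 months, in every library, with 3 months left of 0 months and the 4 phthalate groups left of vehicle; points are libraries, horizontal bars group means and error bars SD of 3 libraries. The ranges of the times overlap for all 9 genes, and all 15 libraries of 3 months are above the 0-month median for Plin2 and Rxra, and 3 of 15 for Fabp5.

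Scd1 and Scd2 encode stearoyl-CoA desaturases, which make monounsaturated fatty acids. At 3 months Scd1 stood at 6.14, 7.40 and 7.85 log2 CPM after DEHP 20 and 8.04, 6.90 and 7.43 after DEHP 200. It stood at 7.51, 7.83 and 6.35 log2 CPM after DiNP 20 and 8.03, 7.31 and 6.83 after DiNP 100, against 6.31, 7.12 and 8.23 in vehicle ovaries. Vehicle libraries spanned 6.31 to 8.23 log2 CPM, wider than any treated group. At 0 months Scd1 was at 6.98, 6.10 and 5.64 log2 CPM after DEHP 20 and 6.48, 7.38 and 6.64 after DEHP 200. Scd1 measured 6.61, 6.39 and 7.49 log2 CPM after DiNP 20 and 6.25, 6.68 and 8.04 after DiNP 100, against 5.58, 7.03 and 6.88 in vehicle ovaries. Vehicle and treated ranges overlapped at 0 months too. Over time Scd1 averaged 7.29 at 3 months against 6.68 log2 CPM at 0 months, a log2 difference of 0.61 ± 0.26 (SE, 95% interval 0.08 to 1.14, adjusted p = 0.0915, limma).

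At 3 months Scd2 stood at 10.98, 11.26 and 11.44 log2 CPM after DEHP 20 and 11.18, 11.05 and 11.41 after DEHP 200. It stood at 11.36, 10.90 and 10.80 log2 CPM after DiNP 20 and 11.34, 10.97 and 10.83 after DiNP 100, against 10.96, 10.81 and 11.34 in vehicle ovaries. The groups overlapped throughout. At 0 months Scd2 was at 11.51, 10.87 and 10.85 log2 CPM after DEHP 20 and 10.84, 11.26 and 10.33 after DEHP 200. Scd2 measured 11.02, 10.96 and 11.85 log2 CPM after DiNP 20 and 11.06, 10.87 and 11.87 after DiNP 100, against 10.85, 11.46 and 11.20 in vehicle ovaries. The log2 difference of DEHP 200 from vehicle at 0 months was -0.36 ± 0.29 (SE, 95% interval -0.96 to 0.24, adjusted p = 0.914, limma), and that over time was -0.01 ± 0.13 (SE).

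Ucp2 encodes a mitochondrial carrier of the uncoupling protein family. At 3 months Ucp2 stood at 8.59, 9.25 and 8.98 log2 CPM after DEHP 20 and 9.10, 8.22 and 8.95 after DEHP 200. It stood at 9.30, 9.30 and 9.02 log2 CPM after DiNP 20 and 9.74, 9.01 and 9.59 after DiNP 100, against 8.93, 8.77 and 8.93 in vehicle ovaries. All libraries of DiNP 20 and DiNP 100 were above the 3 vehicle libraries they share. The means were 9.45 after DiNP 100 and 8.88 log2 CPM in vehicle, a log2 difference of 0.57 ± 0.26 (SE, 95% interval 0.05 to 1.10, unadjusted p = 0.0343, adjusted p = 0.518, limma). After DiNP 20 it was 0.33 ± 0.26 (SE, 95% interval -0.20 to 0.86, adjusted p = 1, limma). At 0 months Ucp2 was at 8.33, 8.61 and 8.91 log2 CPM after DEHP 20 and 8.50, 9.25 and 8.44 after DEHP 200. Ucp2 measured 9.26, 8.75 and 8.50 log2 CPM after DiNP 20 and 8.54, 9.12 and 9.11 after DiNP 100, against 8.58, 8.52 and 8.53 in vehicle ovaries. DiNP 100 overlapped vehicle at 0 months, with a log2 difference of 0.38 ± 0.26 (SE, adjusted p = 1, limma). Over time Ucp2 averaged 9.05 at 3 months against 8.73 log2 CPM at 0 months, a log2 difference of 0.32 ± 0.11 (SE, 95% interval 0.08 to 0.55, adjusted p = 0.0514, limma).

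Acot1 and Acot2 encode cytosolic and mitochondrial acyl-CoA thioesterases and share 31-base words with each other, 16.7% of those of Acot1 and 29.9% of those of Acot2, so reads could be split between them. At 3 months Acot2 stood at 3.47, 3.48 and 3.69 log2 CPM after DEHP 20 and 4.20, 3.62 and 3.90 after DEHP 200. It stood at 3.26, 3.65 and 3.64 log2 CPM after DiNP 20 and 3.81, 3.61 and 3.47 after DiNP 100, against 3.64, 3.71 and 3.91 in vehicle ovaries. Treated groups lay on both sides of vehicle. At 0 months Acot2 was at 3.75, 3.67 and 4.0 log2 CPM after DEHP 20 and 3.87, 3.64 and 3.76 after DEHP 200. Acot2 measured 3.93, 3.78 and 3.41 log2 CPM after DiNP 20 and 3.61, 3.75 and 3.36 after DiNP 100, against 3.69, 3.43 and 3.41 in vehicle ovaries. After DEHP 20 at 0 months the log2 difference was 0.30 ± 0.16 (SE, 95% interval -0.04 to 0.64, adjusted p = 1, limma), with overlapping groups. At 3 months the difference from vehicle was -0.21 ± 0.16 after DEHP 20, 0.15 ± 0.16 after DEHP 200 and -0.23 ± 0.16 after DiNP 20 (log2 difference ± SE). Over time Acot2 averaged 3.67 at 3 months against 3.67 log2 CPM at 0 months (adjusted p = 0.985, limma), and Acot1 averaged 4.11 at 3 months against 4.25 log2 CPM at 0 months (adjusted p = 0.486, limma).

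DEHP and DiNP are both diesters of phthalic acid and differ in their alcohols, branched ethylhexyl chains in DEHP and longer, branched isononyl chains in DiNP. They were given at a shared dose only at 20 µg/kg/day, which allowed 2 comparisons, at 3 months and at 0 months. None of the 37 genes passed in either, where 0 of 14740 genes did (0%), and the adjusted p over both comparisons was 1 for every one of the 37 (limma). At 3 months Fabp5 had the smallest p, with 5.95 after DEHP 20 against 5.44 log2 CPM after DiNP 20, a log2 difference of 0.52 ± 0.22 (SE, 95% interval 0.07 to 0.96). Angptl4 averaged 7.10 after DEHP 20 and 7.46 log2 CPM after DiNP 20, a log2 difference of -0.35 ± 0.31 (SE, 95% interval -0.99 to 0.29). At 0 months Plin2 averaged 5.71 after DEHP 20 and 6.07 log2 CPM after DiNP 20, a log2 difference of -0.36 ± 0.17 (SE, 95% interval -0.72 to -0.01). Slc25a17 averaged 5.38 after DEHP 20 and 5.14 log2 CPM after DiNP 20, a log2 difference of 0.24 ± 0.12 (SE, 95% interval -0.01 to 0.49). The interval lay within 2-fold in either direction for 32 of the 37 genes at each time, and it reached beyond 2-fold for the other 5. The higher doses differ, 200 for DEHP and 100 µg/kg/day for DiNP, so their values stand side by side above without a comparison.

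Between doses of a compound 0 of the 37 and 0 of 14740 genes passed (0% in each of 4 comparisons). At 3 months the 37 genes had a median log2 difference of -0.13 between DEHP 200 and DEHP 20, against -0.01 over all genes, and 8 of the 37 were above 0. Between DiNP 100 and DiNP 20 at 3 months Ppara averaged 4.18 and 4.88 log2 CPM, a log2 difference of -0.71 ± 0.30 (SE, 95% interval -1.33 to -0.08, adjusted p = 0.405, limma). Without DiNP 100 at 3 months replicate 2, this dose comparison called 1336 genes and 2 of the 37, Acadvl (log2 difference 0.45 ± 0.13, SE, adjusted p = 0.0372, limma) and Hsd17b4 (0.29 ± 0.08, SE, adjusted p = 0.039, limma). At 0 months Plin2 averaged 6.13 after DEHP 200 and 5.71 log2 CPM after DEHP 20, a log2 difference of 0.43 ± 0.17 (SE, adjusted p = 0.945, limma). The test of whether a treatment's difference from vehicle changed between times called 0 of the 37 and 0 of 14740 genes for each of the 4 treatments (0%, limma). For DEHP 20 its unadjusted p was under 0.05 for 2 of the 37, Acot2 and Plin2, against 1.96% of all genes.

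The wider pathway was described with lists of genes outside the 37. Of 46 further PPAR target genes 36 were tested. At 3 months 7 passed as higher than at 0 months and 2 as lower. That is 9 of 36, against 20.3% of all genes. Their median log2 difference was 0.16, against 0.00 over all genes. Cpt1c, a brain-type relative of Cpt1a, averaged 3.33 at 3 months and 3.73 log2 CPM at 0 months (log2 difference -0.40 ± 0.10, SE, adjusted p = 0.0102, limma). Among the higher genes were Acot4, Acsl3, Acsl5, Acadsb, Pex14 and Crot, and the other lower gene was Creb3l3.

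Of 27 other fatty acid oxidation enzymes 25 were tested. At 3 months 5 passed as higher and 0 as lower, with a median log2 difference of 0.14. That is 5 of 25, near the 20.3% of all genes that passed. The 5 were Slc22a5, Acox3, Acad10, Etfa and Acat1. Slc22a5, the carnitine importer of the cell surface, averaged 6.16 at 3 months and 5.60 log2 CPM at 0 months (log2 difference 0.56 ± 0.15, SE, adjusted p = 0.0151, limma). Of those with a difference below 0, Mcat had the smallest p, with a log2 difference of -0.07 ± 0.06 (SE). Of 19 PPAR partners and co-regulators 18 were tested. Of these 3 passed as higher and 0 as lower, with a median log2 difference of 0.08. These 3 of 18 also lay near the 20.3% of all genes. Lpin1, a phosphatidate phosphatase that also acts as a coactivator, averaged 5.81 at 3 months and 4.83 log2 CPM at 0 months (log2 difference 0.98 ± 0.19, SE, adjusted p = 0.00202, limma). The kinase gene Prkaa1 had a log2 difference of 0.17 ± 0.06 (SE, adjusted p = 0.0328, limma), and Pprc1 had -0.08 ± 0.08 (SE).

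In the 8 comparisons with vehicle 0 genes of these lists passed. The smallest p above vehicle in each list was for Acsl3, Etfb and Hdac3, all after DiNP 100 at 3 months, with log2 differences of 0.58 ± 0.25, 0.44 ± 0.20 and 0.18 ± 0.09 (SE, adjusted p = 0.518 for each, limma). The smallest p below vehicle was for Slc27a2 after DEHP 20 at 0 months (-0.89 ± 0.34), Acad8 after DiNP 20 at 3 months (-0.24 ± 0.12) and Ncoa2 after DiNP 100 at 3 months (-0.48 ± 0.16), as log2 differences ± SE. None of these was past the adjusted threshold.

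Within a time, levels of many genes followed the corpus luteum marker mean, some of the 37 among them. Over the 15 libraries of 3 months, 10 of the 37 passed at an adjusted p under 0.05, against 24.9% of all 14740 genes (permutation test of Pearson's r with 100000 resamples, two-sided, Benjamini-Hochberg over all genes for each of 3 marker lists at 2 times). Positive were Cpt1a (r = 0.93), Me1, Ech1, Ucp2, Scd1, Ehhadh and Decr1, and negative were Pdk4 (-0.82), Ppara (-0.79) and Cd36 (-0.78). For Decr1 r was 0.661 with all libraries and 0.392 without DEHP 200 replicate 2 and vehicle replicate 1, the 2 farthest from the median marker mean, so it rested on those libraries. Without the same libraries r was 0.611 to 0.838 for the other positive genes and -0.785 to -0.654 for the negative ones. Over the 15 libraries of 0 months 3 of the 37 passed, against 14.2% of all genes. They were Cpt1a, Me1 and Cpt2, and r for Cpt2 was 0.79 with all libraries and 0.36 without replicates 2 and 3 of DEHP 200, so it rested on those libraries. Cpt1a and Me1 passed at both times.

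For Cpt1a at 3 months r was 0.927 and Spearman's rho 0.879 (adjusted permutation p = 0.000501 and 0.00151), and r was 0.838 without the 2 libraries farthest from the median marker mean. At 0 months r was 0.884 and rho 0.889 (adjusted permutation p = 0.00101 and 0.00206), and r was 0.893 without the 2 farthest. For Me1 at 3 months r was 0.895 and rho 0.775 (adjusted permutation p = 0.000733 and 0.0102), with r = 0.797 without the 2 farthest. At 0 months r was 0.811 and rho 0.821 (adjusted permutation p = 0.00101 and 0.00833), with r = 0.784 without the 2 farthest. For Ppara at 3 months r was -0.785 and rho -0.818 (adjusted permutation p = 0.00611 and 0.00494), with r = -0.726 without the 2 farthest. Of the 12 corpus luteum markers themselves 4 passed as higher at 3 months and 0 as lower, beside 10.6% and 9.63% of all genes. Their mean was 10.05 at 3 months and 8.89 log2 CPM at 0 months. The part of luteal tissue in the Cpt1a and Me1 differences over time was not tested.

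**Figure D5:**
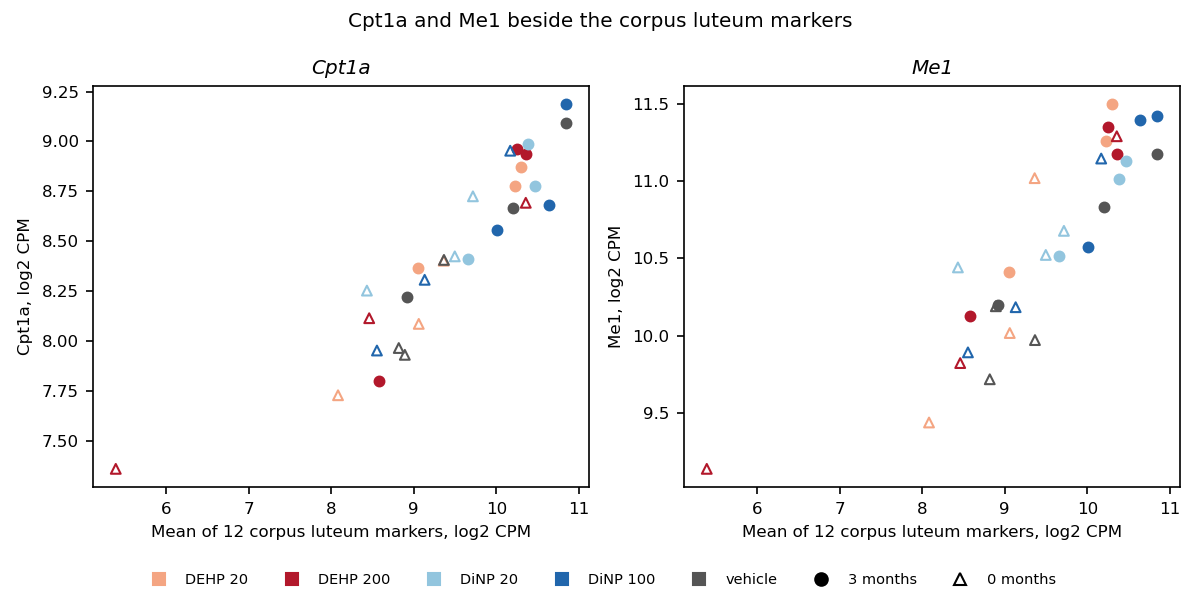
Levels of Cpt1a and Me1 in log2 CPM against the mean level of 12 corpus luteum markers in log2 CPM, 1 point per library coloured by treatment; filled circles are ovaries at 3 months and open triangles ovaries at 0 months. Cpt1a and Me1 lie along a rising line at both times (r = 0.927 and 0.884 for Cpt1a, 0.895 and 0.811 for Me1), and the marker mean runs from 8.58 to 10.85 at 3 months and from 5.39 to 10.36 at 0 months.

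With the granulosa marker mean 0 of the 37 passed at 3 months, against 0% of all genes, and 0 at 0 months, against 0.468%. With the adipocyte marker mean 0 passed at 3 months, against 0.0339% of all genes, and 0 at 0 months, against 0.0678%. At an unadjusted permutation p under 0.05 the granulosa mean gave 6 of the 37 at 3 months (11.7% of all genes) and 6 at 0 months (18.3%). The adipocyte mean gave 6 at 3 months (11.4%) and 4 at 0 months (8.16%). The adipocyte mean over its 6 tested markers was 0.47 to 4.02 log2 CPM at 3 months and 1.26 to 4.90 at 0 months. Of these 6 markers 2 passed as lower at 3 months, beside 9.63% of all genes. Of the 10 adipocyte markers listed, Lep and Adig were at the table's lowest value in 4 libraries each. The oocyte marker mean was 3.12 to 4.43 at 3 months and 4.04 to 5.19 log2 CPM at 0 months. Of 10 oocyte markers 9 passed as lower at 3 months, beside 9.63% of all genes. Theca markers passed as lower in 4 of 9 and smooth and skeletal muscle markers in 3 of 6, beside the same 9.63%. Endothelial and oviduct markers passed in 0 of 8 and 0 of 4, against 20.3% of all genes. Of 8 surface epithelium markers 1 passed as higher, beside 10.6% of all genes. The part of these cell types in the time differences of the 37 genes was not tested.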

How the data were processed

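The 30 libraries were grouped by the labels' agent and time into 10 groups of 3. Per the labels' protocols, RNA of flash-frozen whole ovaries was made into stranded poly(A) libraries and sequenced from 1 end on a HiSeq. The submitters' processing notes name FastQC 0.11.8, Salmon 0.11.3, edgeR and R 3.5.2, and the build GRCm38.p6. The authors deposited log2 CPM values, 1 table of 18022 genes by 30 columns, used as it stands. How the prior count was set is not given in the sources used here. The lowest value was -3.343 log2 CPM, at which 85 to 187 genes stood per library. Read depth is unknown, so no counting interval is given and no count model was used. Of the Entrez identifiers 98.6% matched the RefSeq gene table of the build.

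The 14740 genes with a mean above 0 log2 CPM entered a limma 3.58.1 model (R 4.3.3; statmod 1.5.0 for the block) that gave each of the 10 groups its own mean. Its prior variance followed the mean level, with 20 residual and 2.85 prior degrees of freedom. Comparisons were each phthalate group with vehicle at its time, doses, compounds at 20 µg/kg/day, times, and times by treatment. Adjusted p-values are Benjamini-Hochberg over all 14740 genes within a comparison, with a threshold of 0.05, and intervals are 95%. Relations with marker means used 100000 permutations, adjusted over all 14740 genes (Python 3.11.15, scipy 1.17.1). Shared sequence was counted in words of 31 bases over the annotated transcripts. Sequences come from the RefSeq promoter table of GRCm38.p6.

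Values in every library are given for the receptors, 8 classic targets, each gene that passed, and the smallest p in each direction per vehicle and all-ovaries comparison, and the remaining genes by mean or range. The genes, lists and tests were chosen with earlier results of these data known. Alternatives tried were other centring and normalization, filters, a prior without trend or robust, library weights, the replicate number as a block, another threshold, and each library left out.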

Additional observations from a re-analysis of the deposited data

Results flagged for a closer look

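Plin2, the lipid droplet coat gene, lay on opposite sides of vehicle at the 2 times in the DEHP 20 group. At 3 months it was 6.41, 6.49 and 6.43 log2 CPM after DEHP 20, against 6.23, 6.17 and 6.23 in vehicle ovaries, so all 3 treated libraries were above all 3 vehicle libraries, and 5.59% of all genes lay apart in the same comparison. At 0 months it was 5.77, 5.65 and 5.70 log2 CPM after DEHP 20, against 5.94, 6.0 and 6.04 in vehicle ovaries, so all 3 were below, and 9.4% of all genes lay apart there. The log2 difference from vehicle was 0.23 at 3 months and -0.28 at 0 months, and these differed by 0.52 ± 0.24 (SE, 95% interval 0.02 to 1.02, unadjusted p = 0.0438, adjusted p = 1 over all 14740 genes, limma). The test of the difference therefore failed the correction. Of all genes 1.96% had an unadjusted p under 0.05 in this test, and of the 37 genes 2 did, Plin2 and Acot2. Acot2 had the smaller p (0.0396), with a log2 difference from vehicle of -0.21 at 3 months and 0.30 at 0 months and overlapping libraries at both times. Oviduct markers at 3 months and surface epithelium markers at 0 months also lay apart between DEHP 20 and vehicle ovaries. These were found by looking at every marker list in all 8 comparisons with vehicle, and their part was not tested.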

How the results depend on the processing

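Between all ovaries at 3 and at 0 months, 9 of the 37 genes and 2986 of all genes passed. With median centring 7 passed (2973 of all genes), with quantile normalization 10 (2896), without trend 8 (2911), with library weights 10 (4490), and without replicates 2 and 3 of DEHP 200 at 0 months 8 (3099). It was 9 with no filter (3266 of all genes), with a filter at 2 log2 CPM (2490), with 1 CPM added (2990) and with a robust prior (2974). At an adjusted p under 0.10 the number was 16 (4323 of all genes). With 1 library left out it ran from 4 (2441 of all genes, without DEHP 20 at 3 months replicate 3) to 13 (4389 of all genes, without DEHP 200 at 0 months replicate 2). Plin2, Hadhb, Decr1 and Me1 passed in all 41 alternatives. Centring moved the median of all genes by at most 0.05 log2.

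The replicate numbers did not pair the libraries: deviations of same-numbered libraries correlated at a median of -0.0666 at 3 months and -0.0288 at 0 months. With the replicate number as a block, 6 of the 37 and 2678 of all genes passed between all ovaries at 3 and 0 months, and 0 in each other comparison.

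With limma's library weights, which gave a convergence warning and ran from 0.00491 to 35.1, 3 of the 37 passed against vehicle at 3 months for DEHP 20 (1781 of all genes), for DEHP 200 (1481) and for all treated groups (2011), and 3 in the F test at 3 months (2105). They also gave 9 for DEHP 20 (2639 of all genes) and 7 for vehicle (3567) between times, and 2 for the change of the DEHP 20 difference between times (318). The weight of 35.1 was that of vehicle at 3 months replicate 2, beside 0.636 and 0.587 for replicates 1 and 3. The weighted vehicle mean of 3 months therefore rested mainly on that library. The weight of 0.00491 was that of DiNP 100 at 3 months replicate 1, beside 0.462 and 0.21 for replicates 2 and 3 of that group. These counts of the 37 were 0 without weights, and the cause was not tested. Leaving out 1 library gave 0 to 1 of the 37 for DiNP 100 against vehicle at 3 months, 0 to 3 for DiNP 100 between times and 0 to 2 for DiNP 100 against DiNP 20 at 3 months, the upper values without DiNP 100 at 3 months replicate 2. Apart from the comparison of all ovaries between times, given above, 0 of the 37 passed in every other comparison whichever library was left out. No value reversed its direction past an unadjusted p of 0.05. Group size and unknown read depth limit precision: with 3 libraries a group the median SE of a difference from vehicle was 0.192 log2.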
